A study of Mus musculus with 3072 samples.

Results

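The cells labelled MkP in a single-cell RNA sequencing study of mouse bone marrow were examined for how they differ from each other. MkP wells are the columns of the deposited count matrix whose name contains MkP, from both treatments. Wells had to hold 20000 or more counts and 1000 to 10000 detected genes, with mitochondrially encoded genes taking 20% of the counts or less. The filter kept 1289 of 1535 MkP wells with counts, out of 3072 samples in the whole series, each sample being 1 well. All mice were wild-type C57BL/6 animals that had received barcoded stem cells by transplantation. Control mice were sampled at week 32 after transplantation and platelet-depleted mice at week 28. Each group held 4 mice, with 625 kept control cells and 664 kept depleted cells, and a mouse gave 153 to 178 kept cells from 2 plates. Effects of the treatment, of the week and of the experiment cannot be told apart, since each treatment was used at its own week and under its own experiment code. Sample titles open with a code that was read as the mouse, although no sample label states this. The mouse named in the authors' table matches that code in all 1419 MkP wells listed there. The mice are the replicates, and the numbers 1 to 4 within a group name them only.

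Megakaryocytes are the large marrow cells that shed platelets, and their committed precursors descend from stem and multipotent cells that can also give red cells. GATA1, FLI1 and other transcription factors switch on platelet receptors and granule proteins in this lineage, while KLF1 drives the erythroid programme. Megakaryocytes replicate their DNA without dividing as they mature, so genes of DNA replication and mitosis are part of the biology of their precursors. The labels do not spell out MkP or give the surface markers of the sort.

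The depth of the kept wells was 1630938 counts at the median, from 24105 to 6062902. The median well had 6417 detected genes, from 1324 to 9182. Counts are sequencing reads without molecular identifiers, so amplification adds to the spread between cells. For shares of cells with a count, each cell was thinned at random to 100000 counts, which 1284 of the kept cells reached. The median well held 6872 ± 273 genes in control mice and 5881 ± 308 in depleted mice (SD, n = 4 each). The difference was -991 genes (exact two-sided permutation test, p = 0.0286, the smallest that 4 against 4 mice allow, adjusted p = 0.0476 over 5 measures). At 100000 counts per cell the medians were 5101 ± 173 and 4503 ± 226 genes (difference -598, exact permutation p = 0.0286, adjusted p = 0.0476). The median percentage of mitochondrial counts was 3.16 ± 0.292 in control and 2.56 ± 0.0969 in depleted mice (difference -0.603, exact permutation p = 0.0286, adjusted p = 0.0476). The percentage of wells kept was 81.4 ± 1.87 and 86.6 ± 5.07 (exact permutation p = 0.114, adjusted p = 0.143). Median counts per well were 1462337 ± 300389 and 1749648 ± 73047 (exact permutation p = 0.143, adjusted p = 0.143). The mice of each treatment thus differed in genes per cell at equal depth, which bears on every comparison of detection given here.

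The 4 genes taken as markers of MkP cells, which the labels do not name, were present in most of the cells. Itga2b, the alpha chain of the platelet fibrinogen receptor, had a count in 96.0% of thinned cells, with mice between 92.3 and 99.3%. F2r, a thrombin receptor, had a count in 94.8%, with mice between 92.8 and 97.5%. Pf4, platelet factor 4 of the alpha granule, had a count in 84.8%, with mice between 73.4 and 94.8%. Gp9, a subunit of the von Willebrand factor receptor, had a count in 76%, with mice between 67.5 and 81.5%. Other platelet genes ranged widely, from Gp5 in 85.4% of thinned cells, Treml1 in 58.6%, Nrgn in 54.7% and Selp in 50.5% to Ppbp in 16.4%, Tubb1 in 3.82% and Gp6 in 0.467%. Globin genes were also rare, with Hba-a1 in 8.26% and Hbb-bs in 6.54%, although near-identical globin copies make single globin genes uncertain. Some other erythroid genes were in most of the cells. Of 18 genes listed as erythroid, 4 were in 50% or more of thinned cells, and the median was 7.94%. These 4 were Car2, which was the highest, Aqp1 in 86.4%, Blvrb in 66.3% and Hemgn in 59.9%.

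Listed genes of other marrow cells ranged from no count at all to most of the cells. Of 8 genes listed for T and NK cells, Cd3e, Cd3g and Gzma had no count in any kept cell, and 6 were in under 1% of thinned cells. Nkg7 was the exception, with a count in 87.1%. Of 8 B cell genes, 6 were in under 1% of cells, and Cd79b was in 31.8%. Of 14 neutrophil and monocyte genes, 4 were in under 1%, and the median was 2.80%. Mpo was in 6.31%, Ms4a3 in 28.3%, Prtn3 in 45.5% and Lyz2 in 90.6%. Of 10 mast cell and basophil genes, 5 were in under 1%, with Tpsb2 and Epx at 0, and Cpa3 was in 17.5%. The 8 macrophage genes were in 2.73 to 10.6% of cells. Summed levels of these lists overlapped between the groups of mice, at 299 to 460 CPM (counts scaled to the library total in the usual way) in control and 387 to 486 CPM in depleted mice for the T and NK cell list. For B cell genes they were 29.7 to 65.2 and 34.6 to 46.4 CPM, and for macrophage genes 83.3 to 154 and 45.5 to 137 CPM. Neutrophil and monocyte genes summed to 428 to 746 and 379 to 496 CPM, where the highest mouse, control mouse 2, stood at 443 CPM without its highest cell. Mast cell and basophil genes summed to 54.8 to 129 and 70.3 to 929 CPM, where the highest mouse, depleted mouse 2, stood at 425 CPM without its highest cell.

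Detection ran from genes found in every cell to genes found in a handful. At 100000 counts per cell, 121 genes had a count in every cell and 384 in 95% to just under all. Another 3389 genes were in 50 to 95% of cells, 6046 in 10 to 50%, 5467 in 1 to 10% and 8757 in fewer than 1%. With all counts used, 27688 genes had a count in at least 1 kept cell. Lineage transcription factors were widely detected: 17 of the 18 listed were in 50% or more of thinned cells. Lmo2 was in 99.8%, Gata2 in 98.5%, Fli1 in 93.4% and Gata1 in 80.4%, whereas Klf1 was in 38.8%. Of 18 platelet receptor genes 11 were in 50% or more, and of 18 granule and cytoskeleton genes 7 were. Stem cell genes were in fewer cells, with 3 of 16 at 50% or more, namely Kit, Txnip and Mycn, and Procr in 2.26%.

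Variation between cells was measured for the 9940 genes with a count in at least 10% of thinned cells. It is the standard deviation (SD) of log2(CPM + 10) between cells after the mean of each mouse was removed. This was set against a smooth trend of variance on mean level over all these genes. For the 100 genes of highest mean the trend was held at a constant value. The median gene had an SD of 1.5 log2 units, and 5441 genes lay above the trend. Ranks are by variance above the trend, so the values given next are a description. No predicted gene or pseudogene was among the first 20. All 20 lay above the trend in each of the 16 plates, and 15 were among the first 50 genes of every mouse.

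Pf4 varied most by this measure, with an SD of 3.26 where the trend gave 1.14. By the squared coefficient of variation (CV) over its trend, Pf4 ranked 12th. Its level ran from 3.03 CPM at the 10th percentile of cells over a median of 589 CPM to 6042 CPM at the 90th percentile. It ranked 1st or 2nd in each mouse, and its SD was between 2.82 and 3.52 in the mice. Other genes of the platelet programme followed. Plek, the platelet kinase substrate pleckstrin, had an SD of 2.21, and Rap1b, the small GTPase that activates platelet integrins, 2.16. Cavin2 had an SD of 2.41 and Serpine2, a protease inhibitor, 2.53. Serpine2 had a median of 0.802 CPM and a 90th percentile of 631 CPM, so most of its counts came from the minority of cells with high levels.

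Immediate early genes, which respond within minutes to signals or handling, formed another part of the first 20. Fos had an SD of 3.04, Dusp1 2.79 and Jun 2.40, with Fos at 0.625 CPM in the 10th and 2831 CPM in the 90th percentile of cells. The summed level of the 18 immediate early genes also differed between mice, at 3306 to 3990 CPM in control mice and at 3683, 8574, 5520 and 2521 CPM in depleted mice 1 to 4. Replication and division genes made up a further part. The helicase subunits Mcm5, Mcm3 and Mcm2 had SDs of 2.32, 2.18 and 2.07, the ribonucleotide reductase subunit Rrm1 2.34, Uhrf1 2.44 and the topoisomerase Top2a 2.54. Also among the first 20 were Apoe, Rgs1, Plac8, the endoplasmic reticulum chaperone Hspa5 and the tubulin Tubb4b, with SDs of 1.91 to 2.49.

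**Figure D1:**
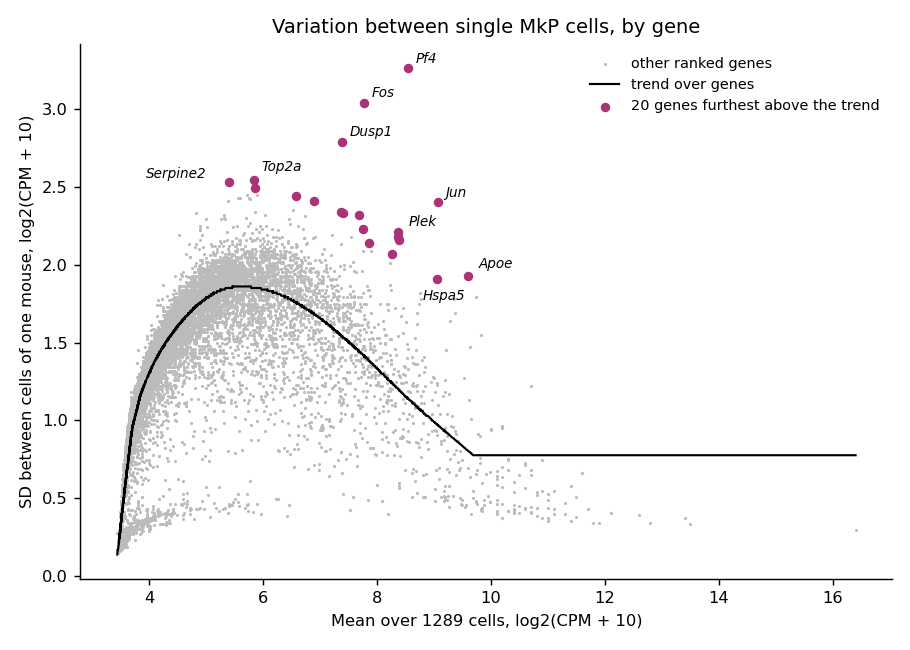
Standard deviation between MkP cells of the same mouse against mean level, both on log2(CPM + 10), with 1 point for each of 9940 genes. The line is the trend over genes, and the coloured points are the 20 genes furthest above it, with Pf4 at an SD of 3.26 against a trend of 1.14.

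Among the 2485 genes with the highest means, the 10 most even relative to the trend were 8 predicted genes or pseudogenes and the mitochondrial genes mt-Atp6 and mt-Co3. Their SDs were 0.400 for mt-Atp6 and 0.451 for mt-Co3, at medians of 53.7 and 38.2 CPM. The mitochondrial gene mt-Co1 stood far higher, at 6545 to 7331 CPM in control mice. Whether reads of mt-Atp6 and mt-Co3 were lost or shared with near-identical copies was not tested, so their low level and evenness are uncertain. Evenness also marked whole lists. The 81 ranked cytosolic ribosomal protein genes had a median SD of 0.461, with 1 gene above the trend, and the 10 housekeeping genes had a median of 0.675, with 2 above it. Members of the fixed lists for platelet receptors lay above the trend in 13 of 15 ranked cases, granule and cytoskeleton genes in 12 of 13, S phase genes in 21 of 22 and G2/M genes in 22 of 22. Interferon response genes lay above it in 10 of 15 cases and p53 targets in 4 of 6, beside 54.7% of all ranked genes.

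Genes that varied together were sought among the 500 most variable genes. Pearson's r was computed over the 1289 cells with the mean of each mouse removed. Cells of a mouse share its libraries, plates and handling, and differences in depth move many genes together, so r is given as a description without a p-value. Over 124750 pairs the median r was 0.0291, the 1st percentile -0.196 and the 99th percentile 0.430. There were 775 pairs at 0.5 or more and 297 at -0.3 or less.

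The pairs of highest r joined genes of mitosis and, in Tk1 with Pclaf at 0.749, of DNA synthesis. Ccna2, cyclin A2, and Birc5, survivin of the chromosomal passenger complex, had an r of 0.863, with mice between 0.792 and 0.903. Birc5 and Cdca3 had 0.826, Ccna2 and Aurkb 0.811, Ube2c and Plk1 0.770 and Ccnb2 and Cenpa 0.754. Depth was removed by regressing each gene on the log2 counts and log2 detected genes of the cells, within each mouse. It therefore takes out differences in gene number as well as in counts. This left Ccna2 and Birc5 at 0.811.

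The pairs of lowest r set Pf4, Vwf, Tmsb4x and others against Plac8, Vim, Apoe, Gm2a and the erythroid genes Car1 and Klf1. Over whole lists, the erythroid score had an r of -0.360 with platelet receptors and -0.348 with granule genes, and the stem cell score had -0.0236 and -0.00356. Pf4 and Plac8 had an r of -0.630. In control mice 1 to 4 it was -0.629, -0.603, -0.573 and -0.672, and in depleted mice 1 to 4 it was -0.630, -0.651, -0.661 and -0.626. All 8 mice therefore gave nearly the same value. Car1, carbonic anhydrase 1 of red cell precursors, and Tmsb4x, thymosin beta 4, had -0.604, with mice between -0.683 and -0.407. Plac8 and Vwf had -0.559, Pf4 and the intermediate filament gene Vim -0.553, Apoe and Serpine2 -0.496 and Klf1 and Tmsb4x -0.477. Regression on depth left Pf4 and Plac8 at -0.608.

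Grouping the 500 genes by r gave 6 modules with 151 genes, and 349 genes fell in none. Each module is called by its leading gene. The Ccna2 module held 55 genes, among them Aurkb, Plk1 and Cdc20 of mitosis, Tyms and Rrm2 of nucleotide synthesis and also Kpna2 of nuclear import and Psat1 of serine synthesis, with a mean r of 0.466 between its members and 0.432 to 0.499 in single mice. The Uhrf1 module held 37 genes, among them the replication genes Mcm5, Pcna and Lig1 and also Nup85 and Ipo5 of nuclear transport and Umps of pyrimidine synthesis, with a mean r of 0.351. The Pf4 module held 34 genes with a mean r of 0.367 and 0.327 to 0.407 in single mice. It contained Itga2b, Vwf, Itgb3, Selp and Gp5, and also Fli1 and Mef2c, which encode transcription factors. The Fos module held 11 genes with a mean r of 0.372. The Plac8 module held Plac8, Apoe, Vim, Gm2a, Galnt6, Ctse, Kit and Tfr2, with a mean r of 0.318. The Car1 module held Car1, Scin, Klf1, Optn, Ifngr1 and St8sia6, with a mean r of 0.345. Its mean r ranged most between plates, from 0.105 to 0.502.

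**Figure D2:**
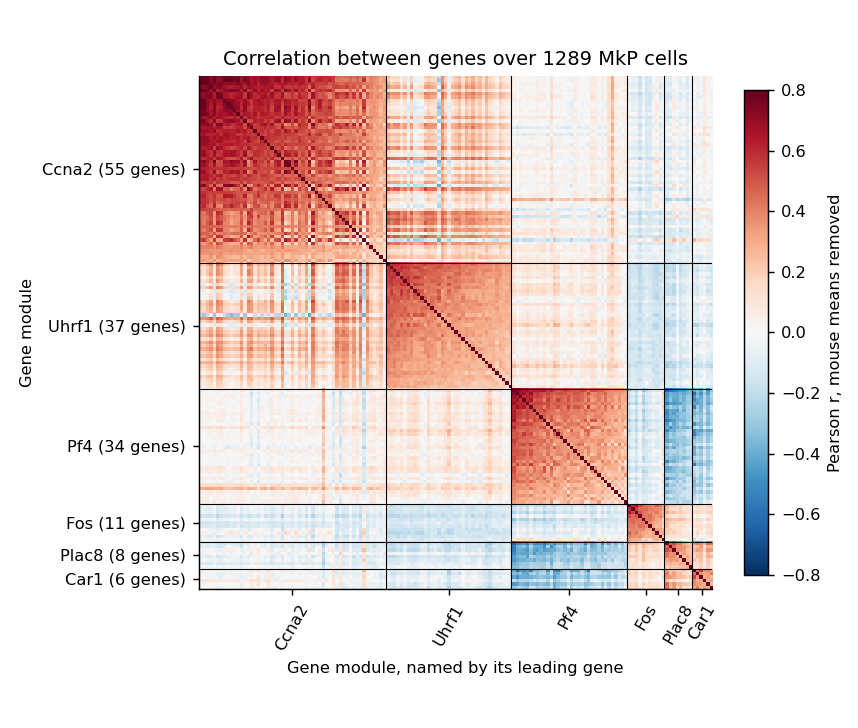
Pearson's r between the 151 genes of the 6 modules over 1289 MkP cells, with mouse means removed. Both axes list the genes module by module, red is positive and blue negative, and the blocks where the Pf4 module meets the Plac8 and Car1 modules are blue.

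Module scores, the mean of a cell's standardised values over the module, showed how the programmes lay to each other. The Pf4 score had an r of -0.763 with the Plac8 score, with mice between -0.819 and -0.666, and of -0.631 with the Car1 score. The Plac8 and Car1 scores had an r of 0.517 with each other. With depth removed by regression these values were -0.753, -0.616 and 0.496. The Pf4 and Ccna2 scores had an r of 0.0723, with mice between -0.0961 and 0.197, which was -0.0845 with depth removed. The Pf4 and Uhrf1 scores had an r of 0.188, with mice between 0.0995 and 0.302, and 0.0589 with depth removed. The Ccna2 and Uhrf1 scores had an r of 0.408, which was 0.0172 after the regression on counts and detected genes. Both of these scores moved with the number of genes per cell, with an r of 0.616 for Ccna2 and 0.617 for Uhrf1 against log2 genes. Against log2 counts the values were lower, at 0.350 and 0.358. The parts of sequencing depth and of gene number in their relation were not tested apart. The first principal component of the 500 genes held 8.90% of their variance and had an r of 0.768 with log2 genes. The second held 5.23%, ran from Pf4, Vwf and Cavin2 to Cenpa, Mki67 and Vim, and had an r of -0.1000 with log2 genes.

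**Figure D3:**
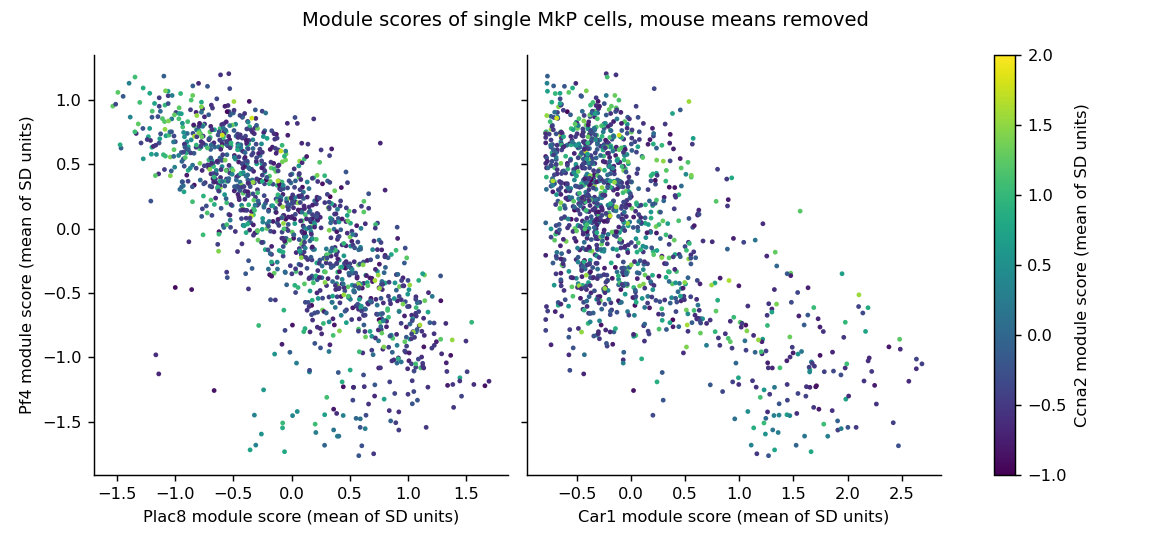
Pf4 module score against the Plac8 score (left) and the Car1 score (right) of 1289 single MkP cells, in units of the mean standardised value, coloured by the Ccna2 score. The Pf4 score is lower where the Plac8 score is higher (r = -0.763), and cells with a Car1 score of 1.0 or more lie almost all under a Pf4 score of 0.

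At the high end of the Car1 score, 137 cells had a score of 1.0 or more, a limit set after the scores were seen. Of these, 135 had a Pf4 score under 0, and their median Pf4 score was -1.05. They came from every mouse, with 12.4, 4.55, 10.5 and 8.28% of cells in control mice 1 to 4 and 11.1, 13, 15.5 and 9.55% in depleted mice 1 to 4. The groups of mice overlapped. Scores were continuous there, and 60 cells lay within 0.25 of the limit.

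The markers differed in how they followed these programmes. Pf4 had its highest r with Tmsb4x at 0.722, Rap1b at 0.685 and the tetraspanin Cd9 at 0.678. Itga2b had its highest r with Tmsb4x at 0.682 and Plek at 0.639, and its lowest with Car1 at -0.541. Gp9 reached 0.404 with both Tmsb4x and Itga2b. F2r stood furthest from the others, with 0.386 for the urea transporter Slc14a1 as its highest value and -0.298 for Cd24a as its lowest.

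Cells of each mouse were also split by their Pf4 level into 4 groups of like size, and the lowest and highest groups, 327 and 323 cells in all, were compared as a description. Vwf, von Willebrand factor, had a count in 18% ± 5.04 of thinned cells of the low group and 90.8% ± 5.48 of the high group (SD, n = 8 mice). In the other direction, Plac8 was in 87.8% ± 7.10 and 26.3% ± 11, Vim in 79.7% ± 7.26 and 18.1% ± 5.69 and Klf1 in 61.6% ± 10.8 and 18% ± 9.16. The ranges of the mice did not overlap for any of these genes. Vwf was among the 5 genes of highest r with Pf4 in these same cells, and Plac8 and Vim among the 5 of lowest r. Their differences between the groups thus restate those correlations. Mki67, a marker of dividing cells, was in 45.8% ± 16.3 and 48.5% ± 16.8, and its ranges overlapped almost fully. Median genes per cell at equal depth ran from 3826 to 5129 over mice in the low group and from 4484 to 5716 in the high group, and the part of this in the differences was not tested.

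Letters of the promoters were compared between the modules because their members moved together. RefSeq windows of 300 bases (GRCm38.p6), 250 before and 50 after the start, were found for 47 of 55 Ccna2 module genes, 35 of 37 Uhrf1 module genes and 24 of 34 Pf4 module genes. Both strands were searched. TTTGAA, the core of an element found in genes of late cell cycle, was in 59.6% of the Ccna2 module windows and in 8.57% of the Uhrf1 module windows. It was in 18.1% of all 27025 windows and in 12.2% of those of the ranked genes. CCAAT was in 66% of the Ccna2 module and 62.9% of the Uhrf1 module windows, beside 37.9% of all windows and 39.8% of those of ranked genes. GGAAG, the core that ETS factors such as FLI1 recognise, was in 23 of 24 Pf4 module windows, beside 71.1% of all windows and 77.4% of those of ranked genes. A high share was not particular to this module, with 92.1% of cytosolic ribosomal protein windows. The Ccna2 and Uhrf1 modules had 72.3 and 71.4%. AGATAA, which GATA1 and its relatives recognise, was in 12.5% of Pf4 module windows, 11.4% of all windows and 6.09% of those of ranked genes. Matches are letters in a window and not shown to be bound, and the modules were chosen from these data. The 100 bases before the start are shown for 4 Ccna2 module genes, with TTTGAA and CCAAT in capitals on either strand, since they carry both motifs.
Cdk1, chr10:69352913-69353012, minus strand: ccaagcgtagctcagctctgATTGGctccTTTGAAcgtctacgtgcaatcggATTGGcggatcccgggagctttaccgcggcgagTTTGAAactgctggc
Ube2c, chr2:164769829-164769928, plus strand: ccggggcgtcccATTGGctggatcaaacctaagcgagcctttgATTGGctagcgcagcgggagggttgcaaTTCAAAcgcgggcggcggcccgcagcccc
Top2a, chr11:99024190-99024289, minus strand: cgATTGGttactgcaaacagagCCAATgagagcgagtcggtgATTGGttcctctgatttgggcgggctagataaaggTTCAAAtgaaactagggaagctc
Cdc20, chr4:118437344-118437443, minus strand: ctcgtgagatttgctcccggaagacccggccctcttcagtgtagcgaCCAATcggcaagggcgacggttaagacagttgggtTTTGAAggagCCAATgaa

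For the Pf4 module, the same stretch is shown for the platelet receptor genes Gp5 and Itga2b, with GGAAG and AGATAA in capitals on either strand. Gp5 holds both motifs in this stretch, and Itga2b holds GGAAG 3 times. No matches overlapped in the 6 stretches shown.
Gp5, chr16:30310782-30310881, minus strand: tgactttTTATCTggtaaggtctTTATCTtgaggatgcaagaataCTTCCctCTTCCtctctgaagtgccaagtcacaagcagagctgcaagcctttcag
Itga2b, chr11:102469884-102469983, minus strand: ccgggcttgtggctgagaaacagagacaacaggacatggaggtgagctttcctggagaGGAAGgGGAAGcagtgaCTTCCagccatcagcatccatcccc

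Whether platelet depletion went with other correlations was examined for 20 gene pairs, of which 19 could be computed, since Ifit3 had no count in 2 mice. In all 8 mice 12 pairs were positive and 2 negative. Vwf and Pf4 had a mean r of 0.657 ± 0.0793, Mki67 and Top2a 0.645 ± 0.0554, Pf4 and Itga2b 0.605 ± 0.0589, Fos and Jun 0.593 ± 0.0488 and the erythroid genes Klf1 and Car1 0.534 ± 0.0786 (SD, n = 8 mice). Pf4 and Klf1 had -0.410 ± 0.0866 and Klf1 and Fli1 -0.292 ± 0.0735. Klf1 and Gata1 had 0.152 ± 0.0493, and Gata1 and Gata2 0.102 ± 0.0767. No pair passed the test between treatments (exact permutation test of 4 against 4 mice, 0 pairs at an unadjusted p under 0.05, lowest adjusted p = 0.543). Pf4 and F2r stood at 0.298 ± 0.10 in control and 0.122 ± 0.0844 in depleted mice (exact permutation p = 0.0571, adjusted p = 0.543).

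**Figure D4:**
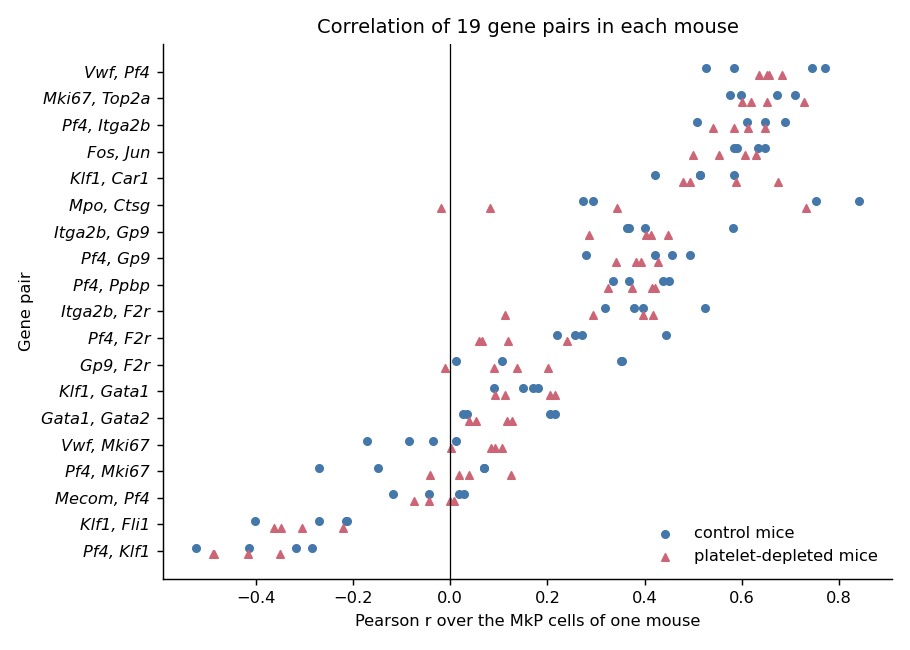
Pearson's r of 19 gene pairs over the MkP cells of each mouse, with circles for the 4 control and triangles for the 4 platelet-depleted mice. The r of Vwf and Pf4 lies between 0.527 and 0.772 in all mice, and that of Pf4 and Klf1 between -0.523 and -0.285.

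Detection differed between treatments. The share of cells with a count was tested on a logit scale for 10932 genes found in 5 to 95% of thinned cells (limma, adjusted over all of them). It was higher in depleted mice for 14 genes (0.128%) and lower for 1533 genes (14%). The median gene was lower by 0.269 logit units in depleted mice, beside the lower number of genes per cell at equal depth given for these mice. When the median of each mouse was subtracted, an alternative chosen after the data were seen, 24 genes were higher and 56 lower, and 68 genes were called the same way in both fits. The share of lower calls went from 99.1% to 70%. The count of 1547 calls also moved when 1 mouse was left out, to 644, 935 and 627 without control mouse 1, 3 or 4 and to 430 and 599 without depleted mouse 2 or 4.

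Pf4 had a count in fewer thinned cells of depleted mice under both scalings. Over all mice, it had a count in 84.8% of thinned cells, but in 97.4% of kept cells with all counts used. Most thinned cells without a count of Pf4 thus held it at a low level. Its shares of thinned cells were 93.7, 94.8, 87.6 and 93% in control mice 1 to 4 and 83.2, 75.7, 73.4 and 78.7% in depleted mice 1 to 4. Every depleted mouse was below every control mouse, and the groups did not overlap for 17.9% of all 10932 genes tested for share. For Pf4 the difference was -1.24 ± 0.221 (SE) logit units (limma, adjusted p = 0.00159), and -0.995 ± 0.201 with medians subtracted (adjusted p = 0.0268). In summed counts, Pf4 stood at 2023, 2223, 2615 and 3769 CPM in control and 1370, 1931, 1781 and 1747 CPM in depleted mice, which did not pass the test of level (edgeR, log2 difference -0.70, adjusted p = 0.198). Neither the thinned shares nor bulk sums of this kind can tell fewer cells with the transcript from less of it per cell.

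Of 5 tested heat shock genes 2 were higher and 1, Hsph1, was lower, and of 8 tested stress response genes 1 was higher and 2 were lower. The counts of lower genes are near the 14% of all genes, and the counts of higher genes stand beside 0.128%. Hspa1b, an inducible HSP70, was in 13.2, 12.4, 20.3 and 14% of cells of control mice 1 to 4 and in 25.5, 23.7, 61 and 42.1% of depleted mice 1 to 4. The groups did not overlap, which the rule for naming called genes asked for and which held for 17.9% of all genes tested. For Hspa1b the difference was 1.21 ± 0.224 logit units (limma, adjusted p = 0.00179). Its near-identical neighbour Hspa1a differed in the same direction (limma, difference 1.09, adjusted p = 0.00283), and the counting could have shared reads between them. The endoplasmic reticulum chaperones Hsp90b1 and Hspa5 were lower, at 97.6% ± 1.64 against 88.7% ± 2.16 and at 97.9% ± 1.43 against 92% ± 1.09 of cells (limma, adjusted p = 0.00219 and 0.0105). With medians subtracted, Hsp90b1 kept its call (adjusted p = 0.0317) and Hspa5 did not pass (adjusted p = 0.113), at differences of -1.43 and -1.36 logit units. Atf4, a factor of the integrated stress response, was also lower under both scalings (limma, difference -1.41, adjusted p = 0.00164, and -1.16 with an adjusted p of 0.0268 with medians subtracted).

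Among the other genes detected in more cells of depleted mice, Ypel3 was in 25.7% ± 7.74 of control and 43.6% ± 4.75 of depleted cells (limma, adjusted p = 0.00311). Xlr3b was in 0.484% ± 0.624 and 10.7% ± 7.48 (limma, adjusted p = 0.00123), with depleted mice at 8.70, 10.7, 20.8 and 2.81%. The stress-induced gene Ddit4 was in 9.32% ± 0.571 and 16.6% ± 3.09, and the GTPase gene Rhob in 48.6% ± 4.74 and 59.2% ± 4.37 (limma, adjusted p = 0.0272 and 0.0498). All 4 passed with medians subtracted too.

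Many division genes had a count in fewer cells of depleted mice, and none of the G2/M list passed once the median of each mouse was subtracted. Of 22 G2/M genes 16 were lower and none higher, with a median of -0.531 logit units beside -0.269 for all genes. Mki67 was in 50.3, 62.1, 44.4 and 64.3% of cells of control mice 1 to 4 and in 42.9, 30.8, 44.8 and 36% of depleted mice 1 to 4 (limma, adjusted p = 0.0105). Depleted mouse 3 lay above control mouse 3, so the groups overlapped slightly. With medians subtracted 0 of the 22 were called, and the list's median was -0.287. Of 51 tested genes of the Ccna2 module 35 were lower, and 0 with medians subtracted. Of 20 tested S phase genes 6 were lower, of 28 Pf4 module genes 6 and of 36 Uhrf1 module genes 9, against 0, 1 and 1 with medians subtracted. Of 11 Fos module genes, 7 Plac8 module genes and 19 interferon genes none was called. All these counts stand beside 14% lower over all genes tested. Small lists can miss or exceed that share by a few genes. Without medians subtracted, the G2/M list and the Ccna2 module, which share genes, lay far above it. The summed level of the G2/M list was 2195 to 2904 CPM in control and 1581 to 2169 CPM in depleted mice, which did not overlap. None of the 22 passed the test of level, and 10.2% of all genes did not overlap in level. The summed levels of 6 other lists did not overlap either. They were higher in depleted mice for lineage transcription factors (4279 to 4686 against 5140 to 5296 CPM), stem cell genes (1318 to 1521 against 1577 to 1915 CPM), interferon genes (448 to 584 against 658 to 694 CPM) and p53 targets (701 to 815 against 827 to 973 CPM). They were lower for stress response genes (1668 to 1957 against 1385 to 1657 CPM) and mitochondrially encoded genes (27937 to 35020 against 24386 to 27042 CPM). No gene of these 6 lists passed the test of level. Summed levels overlapped for the platelet receptor, granule and cytoskeleton, erythroid, S phase, immediate early, heat shock, housekeeping and cytosolic ribosomal protein lists. They also overlapped for the lists of neutrophils and monocytes, mast cells and basophils, B cells, T and NK cells, macrophages and lymphoid progenitors.

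**Figure D5:**
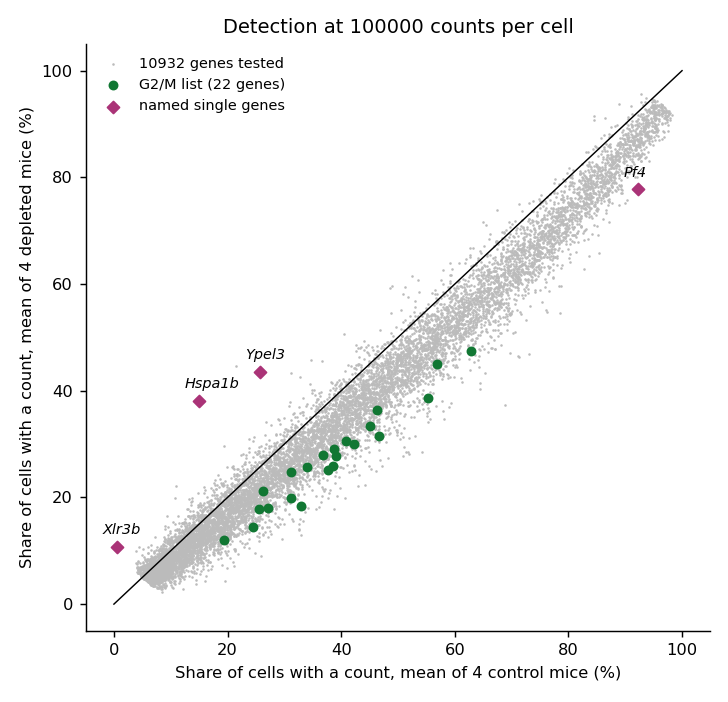
Share of MkP cells with a count at 100000 counts per cell, mean of 4 control mice (x axis, percent) against mean of 4 depleted mice (y axis, percent), for 10932 genes, with the 22 G2/M genes and 4 named genes marked. Most points lie under the line of equality, and Hspa1b, Ypel3 and Xlr3b lie above it.

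Neither level nor spread gave many calls. In summed counts, 1 of 18234 genes was higher (0.00548%) and 1 lower (0.00548%) in depleted mice, with 2456 at an unadjusted p under 0.05 (edgeR quasi-likelihood test), and DESeq2 called 957. Fam126a stood at 27.5, 26, 22.5 and 25.2 CPM in control and 57.6, 47.8, 58.9 and 62.8 CPM in depleted mice (edgeR, adjusted p = 0.0286). Tmem154 stood at 2.22, 1.15, 3.64 and 3.63 CPM in control and at 0.0207 CPM or less in depleted mice (edgeR, adjusted p = 0.0286). The groups did not overlap for either gene, which the rule for naming called genes asked for. With any 1 mouse left out the log2 difference stayed between 1.04 and 1.17 for Fam126a and between -8.43 and -7.72 for Tmem154. The smaller design lost most calls. No gene was called without control mouse 1, 3 or 4 or without any 1 of the depleted mice, and without control mouse 2 Tmem154 kept its call and Fam126a lost it. For the spread between cells relative to the trend, 0 of 9940 genes were higher (0%) and 0 lower (0%) in depleted mice (limma, 1169 at an unadjusted p under 0.05, lowest adjusted p = 0.0527).

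That count of 0 depends on how limma's prior variance was set, and 5 versions of this fit were run. The version reported is the one planned, in which the prior follows the gene's mean variance ratio. Pf4 is the extreme of that ratio, and its SE there, 44.2 for a difference of -1.28, is too large to be of use. Letting the prior follow the gene's mean level instead, which was tried after these results were seen, called 10 genes, 1 higher and 9 lower. They were the histone genes H2ac4 (higher), H2ac8 and Hist1h2ap, the purine synthesis gene Atic and 6 predicted genes or pseudogenes. In that version Pf4 had a difference of -1.28 ± 0.214 (limma, adjusted p = 0.0550). Its variance over the trend was thus not shown to differ in any of the 5 versions.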

How the data were processed

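Single wells of sorted cells were sequenced by Smart-seq2, per the labels' protocols, and the authors deposited a matrix of read counts per gene symbol together with a table that names the mouse of each well (mouse_ID, a label and no measurement). The submitters' processing notes name Trim Galore 0.5, STAR 2.6.0 and HTSeq 0.6.1. The sources used here name no genome build, annotation or strand setting. From 3070 columns, the 1535 MkP columns that match a sample were used, 1 further MkP column matched no sample, and 1535 columns were not used. Counts of 107 symbols on more than 1 row were summed. All 1289 kept wells are in the authors' table.

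Levels per cell are log2(CPM + 10). Detection was counted after thinning to 100000 counts (seed 1). Summed counts per mouse were tested with edgeR 4.0.16 (quasi-likelihood), and shares and variance ratios per mouse with limma 3.58.1, adjusted by Benjamini-Hochberg over all genes tested, at 0.05. Single values and pairs used exact two-sided permutation tests over 70 labelings of 4 against 4 mice. DESeq2 1.42.0 and scran 1.30.0 served alternatives, under R 4.3.3, and Python 3.11.15 with numpy 2.4.6 and scipy 1.17.1 did the rest. Scripts were tested on simulated data. Counting error only limits the precision of single shares. P-values measure the spread between mouse codes, and the labels do not state in full how these were handled. No doublet caller was run.

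The gene lists and the rule for named genes were chosen with earlier results of these data known. The rule names the 20 most variable and 10 most even genes, 10 pairs of highest and 10 of lowest r, 5 genes of highest and 5 of lowest r for each marker, list members, 10 called genes in each direction whose mice do not overlap, and leading genes of modules and components. The cell fractions labelled HSC and CFU were not analysed here, and the planned comparisons of MkP with them were not run. Results for some genes are not reported here.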

Additional observations from a re-analysis of the deposited data

Results flagged for a closer look

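In 142 groups of 4 mice, the gap of the highest or lowest mouse to the next was set against the range of the group by Dixon's criterion, and 4 groups passed, where chance flags about 1 in 20. Control mouse 2 stood apart in the summed level of the neutrophil and monocyte list, at 746 CPM beside 428 to 455 CPM in the other control mice. A single cell led by Mpo held 33674 CPM of this list, and the level without it was 443 CPM. Depleted mouse 2 stood apart in the mast cell and basophil list, at 929 CPM beside 70.3 to 98.6 CPM. A single cell led by Prss34, a basophil protease gene, held 117043 CPM, and the level without it was 425 CPM. The SD of Serpine2 between cells was 2.66 in depleted mouse 4 beside 2.54 to 2.55 in the other depleted mice. The SD of Plac8 was 2.42 in depleted mouse 1 beside 2.57 or more in the others. Both gaps are small against the SDs themselves.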

How the results depend on the processing

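No paired analysis was possible because control and depleted mice come from different experiments and their numbers only name them. No called or single-value difference between treatments that was recomputed changed direction. Regressing out depth, meaning counts and detected genes together, changed the sign of r for 4 of 15 pairs of module scores. These were Ccna2 with Pf4 (0.0723 to -0.0845), Fos (-0.140 to 0.0422), Plac8 (-0.128 to 0.0504) and Car1. The sign also changed for 27 of 120 pairs of list scores, S phase with G2/M among them (0.0896 to -0.280). For the spread between cells, the count of 0 called genes became 4 with a pseudocount of 1, 2 with genes in 30% of cells, and 1 each with pooled size factors, no filter on low genes or depth regressed out. It was 10 with the prior variance on the mean level, with or without the trend held over 40 genes, and 0 to 4 without 1 mouse, where control mouse 1 and depleted mouse 2 gave 1 and depleted mouse 3 gave 4. For shares of cells, 1547 calls became 179 at 20000 counts, 4397 without thinning, 526 with 2 or more counts required and 80 with medians subtracted, and 430 to 2149 without 1 mouse. For levels, 2 calls became 957 with DESeq2 and 0 to 2 without 1 mouse. Of the 20 most variable genes, 13 stayed among the first 20 with a pseudocount of 100 and 13 with depth regressed out, but 2 by squared CV, and 17 to 20 without 1 mouse. The mean r within modules, 0.370, was 0.321 with depth regressed out. Without 1 mouse, the difference in percent kept was 3.14 to 7.14 (7.14, adjusted p = 0.0476 by exact permutation, without depleted mouse 3), in median counts 187619 to 420782 (420782, adjusted p = 0.0357 by exact permutation, without control mouse 2), in median genes -1097 to -845, in thinned genes -686 to -502 and in mitochondrial percent -0.720 to -0.496, and the last 3 missed the threshold in most of these runs, with fewer mice. The causes of these shifts were not tested. The comparisons with HSC and CFU wells were not run.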
